A study of Mus musculus with 15 samples.

Results

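Cytochrome P450 genes encode haem enzymes that insert an oxygen atom into foreign compounds, fatty acids, sterols and vitamins. The members were all protein-coding genes of GENCODE mouse release M21 whose symbol is Cyp followed by a family number, a subfamily letter or letters and a gene number. This rule found 94 genes in 16 families among the 55335 genes listed in the colon data. It leaves out Cyp51 and P450 genes named otherwise, such as Tbxas1 and Ptgis, and also symbols that end in a further letter. Family 2 held 49 members, family 4 held 17 and family 3 held 7, and the other 13 families held 1 to 3 each.

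RNA of colon tissue from 15 mice, 5 in each of 3 groups, was sequenced. DSS_ICB_Fp mice received dextran sulfate sodium (DSS), immune checkpoint blockade (ICB) and Faecalibacterium prausnitzii by gavage. DSS_ICB mice received DSS and checkpoint blockade. DSS mice received DSS alone by their label. All 15 mice thus had DSS, a sulfated polysaccharide that damages the colonic epithelium, and no group without it was analysed here. Checkpoint blockade frees T cells from inhibitory receptors, and Faecalibacterium prausnitzii is a common butyrate-producing bacterium of the human gut. The labels give no strain, sex, age, antibody target, dose, time, control antibody, control gavage or cage. Values were FPKM, fragments scaled to transcript length and to the mapped fragments of the library, so that levels of different genes can be set side by side per length.

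Most microsomal P450 enzymes receive electrons from P450 oxidoreductase, and the mitochondrial ones receive them from ferredoxin. Families 1 to 3 mainly oxidise drugs, dietary chemicals and pollutants, family 4 hydroxylates fatty acids and eicosanoids, and the higher families mostly handle sterols, bile acids, steroid hormones and vitamins A and D. In the gut the foreign-compound enzymes are found mostly in absorptive epithelial cells, where they meet what is swallowed, and nuclear receptors and the aryl hydrocarbon receptor control many of their genes.

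Library depth, estimated from the steps between low FPKM values, was 15.2 to 24.8 M (mega) fragments. DSS_ICB mouse 3 and DSS_ICB mouse 5 stood apart from the rest: gene ranks in mouse 3 correlated with those of the rest at a median of 0.725 and in mouse 5 at 0.864, and for each of the other 13 at 0.922 or more. In DSS_ICB mouse 3, the summed level of 10 absorptive colonocyte markers was 294 FPKM, that of 8 pan-epithelial markers 681 FPKM and that of 7 smooth muscle markers 17077 FPKM, and mitochondrially encoded genes took 33.2% of the listed FPKM. The colonocyte sum was 2245 to 3952 FPKM in DSS_ICB_Fp mice, 1774 to 2768 FPKM in the other 4 DSS_ICB mice and 2009 to 3227 FPKM in DSS mice. None of these colonocyte, pan-epithelial and smooth muscle markers was at 0 in all libraries. Of 8 hepatocyte markers 6 stayed under 1 FPKM in all libraries, and of 8 small intestine markers 5 did so, with Fabp1 at 0 in all. The rest of these lists were present: Ttr at 0.374 to 52.4 FPKM, Cps1 at 0 to 8.86 FPKM, Fabp6 at 0.677 to 54.1 FPKM, Fabp2 at 0.202 to 11.5 FPKM and Apob at 0.108 to 3.93 FPKM. Each was lowest in DSS_ICB mouse 3 and next lowest in DSS_ICB mouse 5. Results below are therefore also given without these 2 libraries, an alternative chosen after seeing the data. In pieces of tissue, fewer cells of a type and less RNA per cell cannot be told apart.

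Of the 94 members, 29 had at least 1 FPKM in at least 5 libraries and were tested, and 65 were not. Another 29 were at 0 in all 15 libraries, and 36 untested members were above 0 in some library. Cyp2r1 was the only untested member to reach 1 FPKM anywhere. The tested members came from 8 families, with 15 in family 2, 8 in family 4 and 1 each in families 3, 7, 20, 26, 27 and 39. Because a member that is high in 1 group only can pass this filter through that group, the 29 do not stand for all members.

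The P450 transcript pool of the colon was led by few genes. Cyp2d34, a member of the drug-metabolising Cyp2d subfamily, gave 18.6% of the summed P450 FPKM in DSS_ICB_Fp mice, 22.6% in DSS_ICB mice and 21.6% in DSS mice. Next came Cyp2c55 with 16.9% and Cyp2c68 with 11.8% in DSS_ICB_Fp mice, Cyp2c68 with 7.32%, Cyp4f40 with 7.05% and Cyp20a1 with 5.80% in DSS_ICB mice, and Cyp2c68 with 10.8% and Cyp3a13 with 7.32% in DSS mice. The summed level of all 94 members was 438 ± 169 FPKM in DSS_ICB_Fp mice, 206 ± 83.2 FPKM in DSS_ICB mice and 311 ± 54.3 FPKM in DSS mice (SD, n = 5 each). The ranges overlapped: 235 to 689 FPKM in DSS_ICB_Fp mice, 82.9 to 279 FPKM in DSS_ICB mice and 249 to 384 FPKM in DSS mice. DSS_ICB mouse 3 had the lowest sum and DSS_ICB mouse 5, at 157 FPKM, the next lowest.

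**Figure D1:**
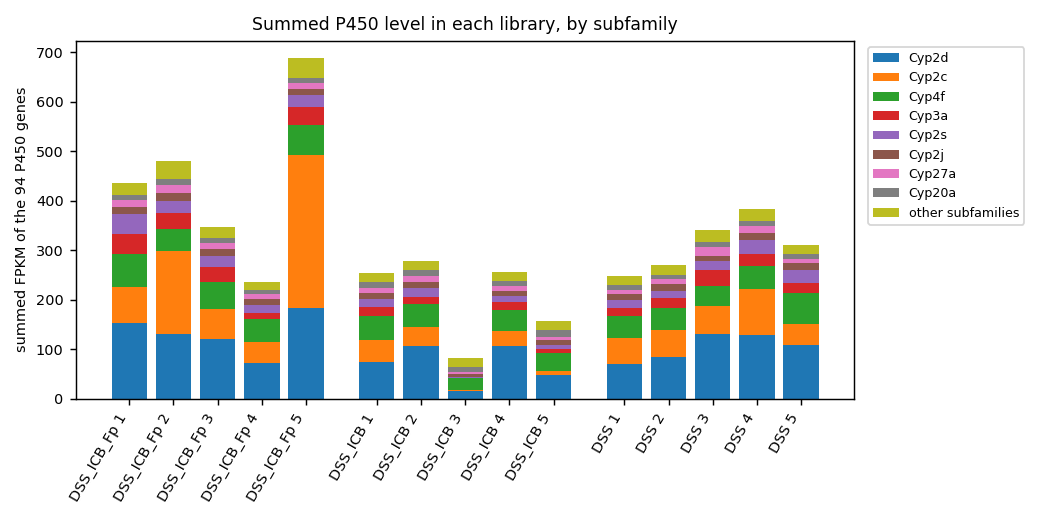
Summed FPKM of the 94 P450 genes in each of the 15 libraries (bars from 0, vertical axis in FPKM), divided by subfamily (colours), with DSS_ICB_Fp mice at the left, DSS_ICB mice in the middle and DSS mice at the right. Cyp2d and Cyp2c genes make up most of the highest bar, DSS_ICB_Fp mouse 5 at 689 FPKM, while in the lowest, DSS_ICB mouse 3 at 82.9 FPKM, Cyp2c genes sum to 1.011 FPKM and Cyp2d genes to 16.4 FPKM.

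**Figure D2:**
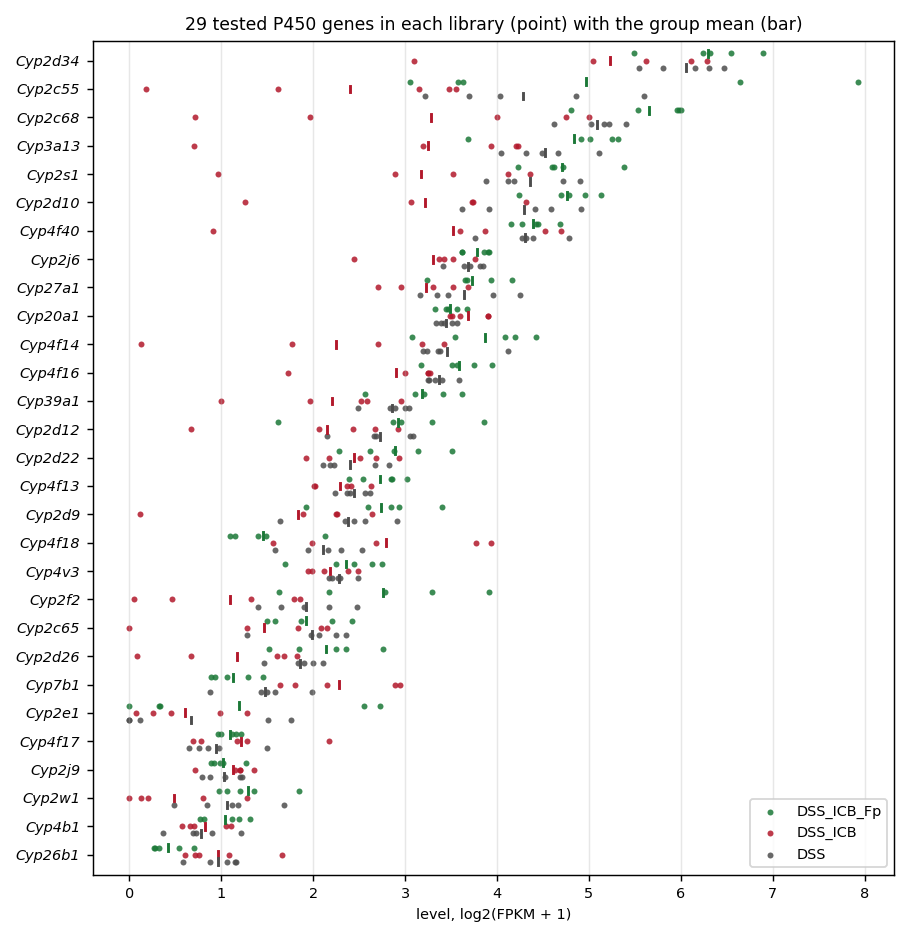
Levels of the 29 tested P450 genes as log2(FPKM + 1), 1 point per library and a bar at each group mean, with genes ordered by their mean level and the groups stacked DSS_ICB_Fp, DSS_ICB and DSS within each row. The lowest red points of many rows, well left of all others, are DSS_ICB mouse 3.

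No tested P450 gene passed the adjusted threshold in any of the 3 comparisons (limma on log2(FPKM + 1), Benjamini-Hochberg adjusted p under 0.05 over 14385 genes). For DSS_ICB against DSS, 0 of 29 members were called beside 0.0209% of all tested genes. For DSS_ICB_Fp against DSS_ICB, 0 of 29 were called beside 0.132%, and for DSS_ICB_Fp against DSS 0 of 29 beside 0%. At an unadjusted p under 0.05, DSS_ICB mice were lower than DSS mice in 8 members, 27.6% of the 29, beside 4.22% of all tested genes, and higher in 1 member beside 7.08%. DSS_ICB_Fp mice were higher than DSS_ICB mice in 15 members, 51.7%, beside 9.34% of all tested genes, and lower in 3 members, 10.3%, beside 12.4%. Against DSS mice, DSS_ICB_Fp mice were higher in 0 members beside 0.591% and lower in 1 member beside 0.82%. Both comparisons with DSS_ICB mice share those 5 libraries.

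The median log2 change over the 29 members was -0.52 for DSS_ICB against DSS, with 22 below 0, while the median over all tested genes was 0.02. It was 0.69 for DSS_ICB_Fp against DSS_ICB, with 23 above 0, beside -0.04 over all genes. For DSS_ICB_Fp against DSS it was 0.24, with 24 above 0, beside -0.01. Much of the difference of DSS_ICB mice rested on 2 libraries. DSS_ICB mouse 3 was the lowest of all 15 in 17 of the 29 members, and mice 3 and 5 were the 2 lowest in 17. Without both, the median for DSS_ICB against DSS was -0.11 and 0 members had an unadjusted p under 0.05 in either direction. DSS_ICB_Fp against DSS_ICB then had a median of 0.29, with 8 members higher, beside 3.65% of all genes, and 3 lower, beside 14.3%. DSS_ICB_Fp against DSS then had 4 members higher, beside 1.98% of all genes, and 2 lower, beside 2.996%. Its median stayed at 0.24, because the omitted mice enter this comparison only through the spread. The 8 lower members of DSS_ICB against DSS stood beside 4.22% of all genes. The count was 1 (1.95% of all genes) without DSS_ICB mouse 3 and 1 (2.68%) without DSS_ICB mouse 5. Without DSS mouse 4 or DSS mouse 5 it was 2 (2.57% and 1.86%). Without DSS mouse 1, DSS_ICB_Fp mouse 1 or DSS_ICB_Fp mouse 3 it was 5 (2.94%, 3.73% and 3.55%). In a fit of the 2 groups it was 4 (2.47%), and with a pseudocount of 10 it was 5 (4.06%). It rose to 11 without DSS_ICB mouse 1 (8.48%) and with upper-quartile scaling (7.54%). With a pseudocount of 0.1 (4.18%) or without DSS_ICB mouse 2 (7.06%) it was 10.

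**Figure D3:**
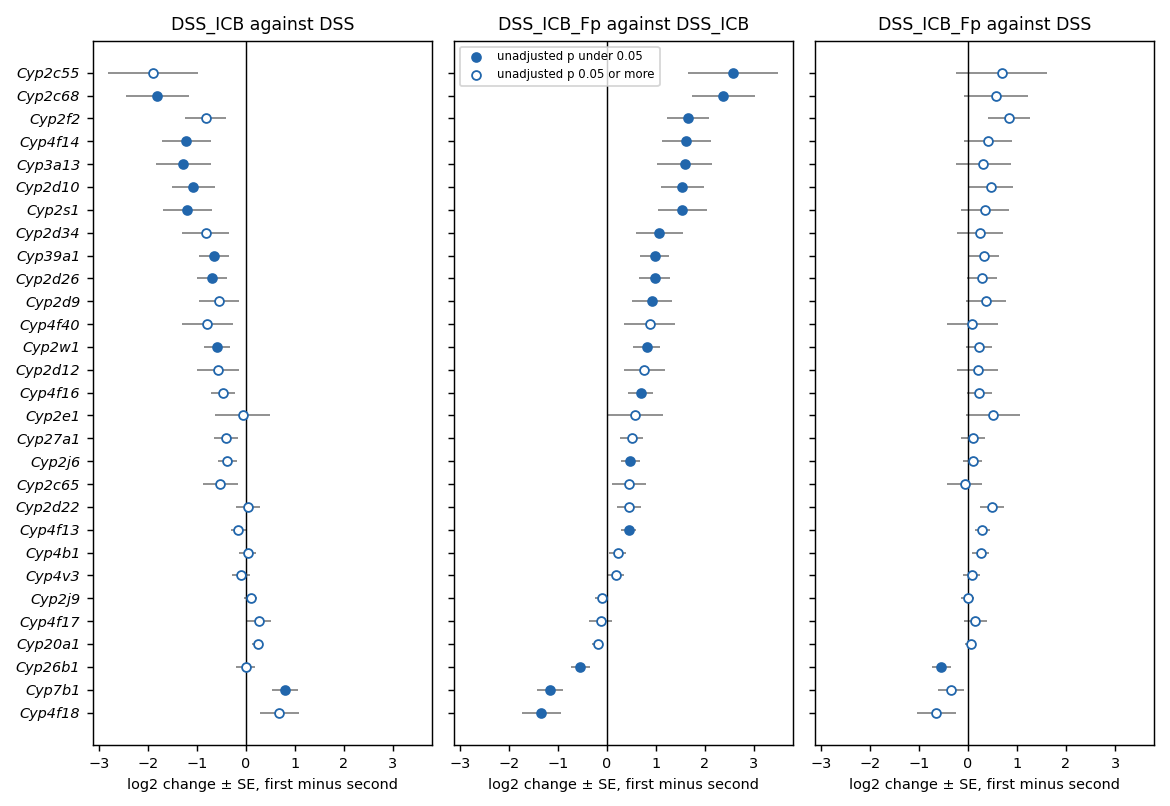
Log2 change with its standard error for the 29 tested P450 genes in the 3 comparisons (horizontal axes, first named group minus second), ordered by the change of DSS_ICB_Fp against DSS_ICB; filled points have an unadjusted p under 0.05. The middle panel has 15 filled points right of 0 and 3 left of it, and the right panel has 1 filled point, Cyp26b1.

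**Figure D4:**
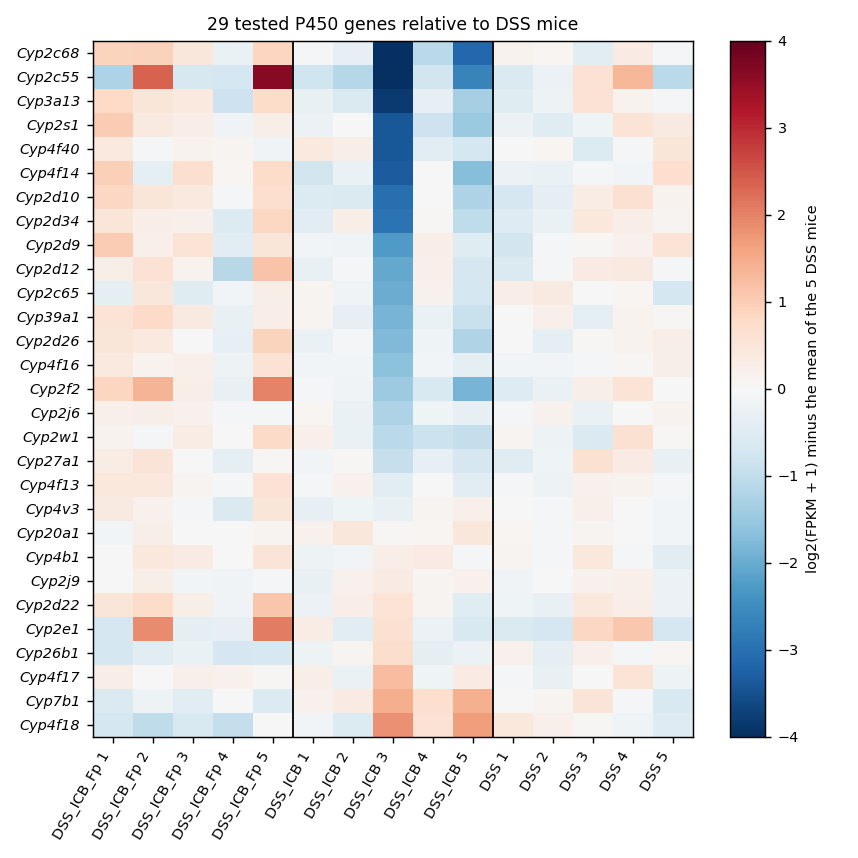
Log2(FPKM + 1) of the 29 tested P450 genes in each library minus the mean of the 5 DSS mice, with DSS_ICB_Fp, DSS_ICB and DSS libraries from left to right and genes ordered by this difference in DSS_ICB mouse 3; colours are capped at 4 in either direction. DSS_ICB mouse 3 is the darkest blue column, and DSS_ICB mouse 5 is blue for many of the same genes; Cyp7b1 and Cyp4f18 are red in both.

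Family 1 was near the floor. Cyp1a1, which oxidises polycyclic aromatic hydrocarbons and is the textbook target of the aryl hydrocarbon receptor, had 0.07, 0.85, 0.53, 0.16 and 0.32 FPKM in DSS_ICB_Fp mice 1 to 5, against 0.10, 0.19, 0, 0.18 and 0 FPKM in DSS_ICB mice 1 to 5 and 0.10, 0.48, 0.25, 0.87 and 0.98 FPKM in DSS mice 1 to 5. It stayed under 1 FPKM in all 15 libraries and was not tested, and the groups overlapped. Cyp1b1, which oxidises oestrogens and aromatic hydrocarbons, did not exceed 0.233 FPKM, and Cyp1a2, mainly a liver enzyme, was at 0 in 14 libraries.

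The Cyp2c genes lie together on chromosome 19 (15 members between 39007019 and 44029208, GRCm38), but only 3 of them were tested. Cyp2c68 had 62.2, 63.2, 45.3, 27.01 and 61.3 FPKM in DSS_ICB_Fp mice 1 to 5, against 30.9, 25.9, 0.636, 14.98 and 2.89 FPKM in DSS_ICB mice 1 to 5 and 36.3, 34.8, 23.6, 41.4 and 31.4 FPKM in DSS mice 1 to 5. Of the DSS_ICB_Fp mice 4 lay above all DSS_ICB and DSS mice, and mouse 4 lay among them; of the DSS_ICB mice, mice 3 and 5 were far below all others. The log2 change was 2.37 ± 0.65 (SE) for DSS_ICB_Fp against DSS_ICB, with an adjusted p of 0.0906, which was 0.0359 without DSS_ICB mouse 1. Leaving out that mouse raised the calls over all genes in this comparison from 19 to 598. The same rise stands beside each adjusted p given below without DSS_ICB mouse 1. The change was 1.08 without DSS_ICB mice 3 and 5, with an adjusted p of 0.182. For DSS_ICB against DSS it was -1.80 ± 0.65 with an adjusted p of 0.43, and -0.50 without those mice. For DSS_ICB_Fp against DSS it was 0.57, with a 95% interval of -0.81 to 1.95 and an unadjusted limma p of 0.392. This interval uses the spread of all 3 groups. With DSS_ICB mice 3 and 5 left out, the same change had an unadjusted p of 0.0373 and an adjusted p of 0.900. Of the 50-base stretches of the Cyp2c68 transcripts, 43.3% also occur in other P450 transcripts, most often in Cyp2c40, so the division of reads among these genes is uncertain.

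Cyp2c55, an arachidonic acid hydroxylase known from mouse colon, varied widely among mice. It had 7.27, 99.1, 11.4, 10.9 and 242 FPKM in DSS_ICB_Fp mice 1 to 5, against 10.1, 7.90, 0.132, 10.7 and 2.07 FPKM in DSS_ICB mice 1 to 5 and 11.99, 15.4, 27.98, 47.4 and 8.31 FPKM in DSS mice 1 to 5. The high mean of DSS_ICB_Fp mice, 74.1 ± 102 FPKM (SD, n = 5), came from mice 2 and 5, and the other 3 lay within the range of the DSS mice or just below it. The log2 change was 2.57 ± 0.92 for DSS_ICB_Fp against DSS_ICB, with an adjusted p of 0.142, and 1.57 without DSS_ICB mice 3 and 5. It was 0.68 ± 0.92 for DSS_ICB_Fp against DSS, which turned to -0.06 without DSS_ICB_Fp mouse 5. Cyp2c65, an arachidonate epoxygenase of the intestine, averaged 2.89 ± 1.08 FPKM in DSS_ICB_Fp mice, 2.13 ± 1.43 FPKM in DSS_ICB mice and 3.08 ± 1.03 FPKM in DSS mice, and its groups overlapped. Its close relative Cyp2c66, with which it shares 20.2% of its 50-base stretches, was at 0 in 14 libraries.

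The Cyp2d genes on chromosome 15 (8 members between 82370527 and 82794294) had 6 of 8 members past the filter. Cyp2d34 had 92.0, 78.8, 74.8, 44.0 and 118 FPKM in DSS_ICB_Fp mice 1 to 5, against 48.3, 76.7, 7.58, 68.1 and 31.9 FPKM in DSS_ICB mice 1 to 5 and 45.7, 54.8, 87.2, 78.1 and 70.0 FPKM in DSS mice 1 to 5. The 3 groups overlapped, with DSS_ICB mice 3 and 5 at the low end. Its log2 change was 1.07 ± 0.48 for DSS_ICB_Fp against DSS_ICB, with an adjusted p of 0.214, but 0.29 without those mice. Cyp2d10 averaged 26.7 ± 5.98 FPKM in DSS_ICB_Fp mice, 10.4 ± 6.52 FPKM in DSS_ICB mice and 19.6 ± 7.07 FPKM in DSS mice. Its change for DSS_ICB_Fp against DSS_ICB was 1.54 ± 0.44 with an adjusted p of 0.0982, and 0.84 without DSS_ICB mice 3 and 5; 35.2% of its 50-base stretches occur in other P450 transcripts, most often in Cyp2d11. Cyp2d22 went the other way in DSS_ICB mouse 3, where it was highest of its group at 6.66 FPKM, beside 2.78 to 5.40 FPKM in the other DSS_ICB mice, 3.84 to 10.4 FPKM in DSS_ICB_Fp mice and 3.31 to 6.06 FPKM in DSS mice. Cyp2d26 averaged 3.61 ± 1.495 FPKM in DSS_ICB_Fp mice, 1.49 ± 1.09 FPKM in DSS_ICB mice and 2.67 ± 0.588 FPKM in DSS mice.

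Several single-gene subfamilies of family 2 had the same ordering of group means. Cyp2s1, an epithelial P450 that the aryl hydrocarbon receptor can induce, had 40.8, 25.3, 23.6, 17.7 and 23.2 FPKM in DSS_ICB_Fp mice 1 to 5, against 16.3, 19.6, 0.946, 10.5 and 6.40 FPKM in DSS_ICB mice 1 to 5 and 16.4, 13.7, 17.1, 28.9 and 25.4 FPKM in DSS mice 1 to 5. DSS_ICB_Fp mice overlapped DSS_ICB mice by 1 mouse on each side. The change was 1.54 ± 0.49 for DSS_ICB_Fp against DSS_ICB, with an adjusted p of 0.119, and 0.71 without DSS_ICB mice 3 and 5. Cyp2f2, which activates naphthalene in mouse airway cells, had 5.87, 8.81, 3.52, 2.09 and 14.1 FPKM in DSS_ICB_Fp mice 1 to 5, against 2.62, 2.47, 0.38, 1.505 and 0.038 FPKM in DSS_ICB mice 1 to 5 and 1.64, 2.14, 3.49, 4.57 and 2.74 FPKM in DSS mice 1 to 5. Only DSS_ICB_Fp mouse 4 lay within the DSS_ICB range. Its change for DSS_ICB_Fp against DSS_ICB was 1.66 ± 0.43, with an adjusted p of 0.0851, the smallest among members higher in DSS_ICB_Fp mice. Without DSS_ICB mice 3 and 5 the change was 1.10, with an adjusted p of 0.211. The adjusted p was 0.0419 without DSS_ICB mouse 1 and 0.0314 without DSS_ICB_Fp mouse 4. For DSS_ICB_Fp against DSS, Cyp2f2 changed by 0.84, with a 95% interval of -0.07 to 1.75.

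Cyp2w1, which is known from foetal colon and colon tumours, was low, at 0.963 to 2.59 FPKM in DSS_ICB_Fp mice, 0 to 1.43 FPKM in DSS_ICB mice and 0.40 to 2.22 FPKM in DSS mice. Its change for DSS_ICB_Fp against DSS_ICB was 0.81 ± 0.27, with an adjusted p of 0.125, which was 0.0434 without DSS_ICB mouse 1. Without DSS_ICB mice 3 and 5 the change was 0.53, with an adjusted p of 0.338. Cyp2e1, which oxidises ethanol and other small molecules, had 0, 4.88, 0.255, 0.258 and 5.60 FPKM in DSS_ICB_Fp mice 1 to 5, against 0.9748, 0.195, 1.42, 0.368 and 0.049 FPKM in DSS_ICB mice 1 to 5 and 0.080, 0, 1.84, 2.37 and 0 FPKM in DSS mice 1 to 5. The highest values, in DSS_ICB_Fp mice 2 and 5 and DSS mice 3 and 4, lay in 3 of these 4 libraries beside the highest sums of 5 adipocyte markers (Adipoq, Plin1, Cidec, Lep and Retn). That sum was 18.0 FPKM in DSS_ICB_Fp mouse 2, 20.4 FPKM in DSS_ICB_Fp mouse 5 and 9.71 FPKM in DSS mouse 4, and ranged from 0.180 to 20.4 FPKM in DSS_ICB_Fp mice, 1.80 to 5.80 FPKM in DSS_ICB mice and 0.182 to 9.71 FPKM in DSS mice. Lep stayed under 1 FPKM throughout, and the part of adipose tissue in the Cyp2e1 values was not tested. Of the 4 Cyp2a, 5 Cyp2b and 1 Cyp2g members, none reached 0.1 FPKM.

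In family 3, which handles the widest range of drugs, only Cyp3a13 was present. It had 38.8, 31.2, 29.1, 11.8 and 37.1 FPKM in DSS_ICB_Fp mice 1 to 5, against 17.7, 14.3, 0.628, 17.4 and 8.15 FPKM in DSS_ICB mice 1 to 5 and 15.5, 18.9, 33.5, 24.3 and 21.4 FPKM in DSS mice 1 to 5. In 4 of 5 DSS_ICB_Fp mice it was higher than in all DSS_ICB mice, and DSS_ICB_Fp mouse 4 was within their range. The change for DSS_ICB_Fp against DSS_ICB was 1.58 ± 0.56, with an adjusted p of 0.137, and 0.72 without DSS_ICB mice 3 and 5. For DSS_ICB against DSS it was -1.27 ± 0.56, with an adjusted p of 0.434, and -0.40 without them. The other 6 Cyp3a members, among them the liver enzyme Cyp3a11, did not exceed 0.0091 FPKM.

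Absorptive colonocyte markers were also lowest in DSS_ICB mouse 3, as given above. In DSS_ICB mouse 5 their sum was 1774 FPKM, beside 2072 FPKM in DSS_ICB mouse 4 and 2009 FPKM in DSS mouse 1. Single markers of this sum differed in direction. In the same order of mice, Slc26a3 had 4.84, 26.3 and 39.4 FPKM and Selenbp1 15.1, 61.3 and 113 FPKM. Slc26a2 and Muc3 were also lowest in DSS_ICB mouse 5. Car1 had 766, 649 and 676 FPKM and Mall 51.8, 32.6 and 34.3 FPKM, and Ceacam20 and Cdhr5 were also highest there. Car4 and Aqp8 lay between. The summed level of the 49 foreign-compound P450 genes was 70.6 FPKM in DSS_ICB mouse 5, 166 FPKM in DSS_ICB mouse 4 and 157 FPKM in DSS mouse 1. Of the 10 markers, 0 were called in DSS_ICB_Fp against DSS_ICB, beside 0.132% of all tested genes. At an unadjusted p under 0.05, 5 were higher, beside 9.34%, and the median change of the 10 was 1.19. For DSS_ICB against DSS, 4 were lower at that level, beside 4.22%, and the median was -1.04. The part of the epithelial content of each piece in the P450 values was not tested.

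Family 4 had 8 tested members of 17, and Cyp4f genes, which hydroxylate leukotriene B4 and other eicosanoids, made up most of its level. Its summed level was 60.2 ± 10.6 FPKM in DSS_ICB_Fp mice, 44.3 ± 9.35 FPKM in DSS_ICB mice and 52.7 ± 7.35 FPKM in DSS mice (SD, n = 5 each). Cyp4f40 had the highest mean, with 20.2 ± 3.01 FPKM in DSS_ICB_Fp mice, 14.5 ± 9.53 FPKM in DSS_ICB mice and 19.3 ± 4.99 FPKM in DSS mice. Its low DSS_ICB mean came from mouse 3 at 0.886 FPKM, and the change for DSS_ICB against DSS was -0.78 with all mice but 0.06 without DSS_ICB mice 3 and 5. Cyp4f14, a leukotriene B4 hydroxylase, had 20.4, 7.39, 16.02, 10.6 and 17.3 FPKM in DSS_ICB_Fp mice 1 to 5, against 5.54, 8.11, 0.096, 9.75 and 2.40 FPKM in DSS_ICB mice 1 to 5 and 8.41, 8.15, 9.38, 9.22 and 16.4 FPKM in DSS mice 1 to 5. DSS_ICB_Fp mouse 2 lay within the DSS_ICB range and the other 4 above it. Its change for DSS_ICB_Fp against DSS_ICB was 1.62 ± 0.50, with an adjusted p of 0.11, and 0.76 without DSS_ICB mice 3 and 5. Cyp4f13 and Cyp4f16 changed by 0.44 ± 0.15 and 0.69 ± 0.25 in that comparison, with adjusted p-values of 0.128 and 0.148. Without DSS_ICB mice 3 and 5 these changes were 0.26 and 0.33, and that of Cyp4f16 was 0.40 without DSS_ICB mouse 3 alone.

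Cyp4f18, the leukotriene B4 hydroxylase of mouse neutrophils, had its highest mean in DSS_ICB mice, unlike Cyp4f13, Cyp4f14, Cyp4f16 and Cyp4f40. Cyp4f17, the remaining tested Cyp4f gene, also had its highest mean there, with 1.14 ± 0.153 FPKM in DSS_ICB_Fp mice, 1.501 ± 1.17 FPKM in DSS_ICB mice and 0.971 ± 0.495 FPKM in DSS mice; DSS_ICB mouse 3 was at 3.50 FPKM and the groups overlapped. Cyp4f18 is the 1 Cyp4f member outside the cluster on chromosome 17 (8 members between 32452723 and 32947402) and lies on chromosome 8, from 71988482 to 72009626 on the minus strand. Cyp4f18 had 1.63, 1.13, 1.81, 1.22 and 3.37 FPKM in DSS_ICB_Fp mice 1 to 5, against 2.97, 1.94, 14.3, 5.44 and 12.7 FPKM in DSS_ICB mice 1 to 5 and 4.7996, 3.92, 3.46, 2.84 and 1.99 FPKM in DSS mice 1 to 5. DSS_ICB mice 3 and 5 were the highest of all, and 4 of the 5 DSS_ICB_Fp mice lay below all DSS_ICB and DSS mice. The change for DSS_ICB_Fp against DSS_ICB was -1.34 ± 0.40, with an adjusted p of 0.104. Without DSS_ICB mice 3 and 5 the change was -0.63, with an adjusted p of 0.263. The adjusted p was 0.0485 without DSS_ICB mouse 1 and 0.0468 without DSS_ICB mouse 2. For DSS_ICB against DSS it was 0.69 ± 0.40, with an adjusted p of 0.486, and -0.02 without mice 3 and 5. The summed level of 7 neutrophil markers was 2.05 to 33.2 FPKM in DSS_ICB_Fp mice, 128 to 2020 FPKM in DSS_ICB mice and 21.2 to 58.3 FPKM in DSS mice, with the 2 highest sums, 2020 and 862 FPKM, in DSS_ICB mice 3 and 5. Of these markers 5 were called lower in DSS_ICB_Fp against DSS_ICB, where 0.132% of all tested genes were called in either direction. All 7 were lower at an unadjusted p under 0.05, beside 12.4% of all tested genes. None of the 7 was at 0 in all libraries. The part of neutrophil content in the Cyp4f18 values was not tested.

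The remaining fatty acid enzymes lie outside the Cyp4f subfamily. Cyp4v3, the mouse counterpart of the human fatty acid hydroxylase CYP4V2, averaged 4.29 ± 1.37 FPKM in DSS_ICB_Fp mice, 3.59 ± 0.781 FPKM in DSS_ICB mice and 3.88 ± 0.442 FPKM in DSS mice. Cyp4b1, which acts on medium-chain fatty acids and some toxins, stayed between 0.293 and 1.48 FPKM. Cyp2j6, of an arachidonate epoxygenase subfamily on chromosome 4, averaged 12.8 ± 1.39 FPKM in DSS_ICB_Fp mice, 9.30 ± 2.99 FPKM in DSS_ICB mice and 11.9 ± 1.49 FPKM in DSS mice. Its change for DSS_ICB_Fp against DSS_ICB was 0.48 ± 0.20, with an unadjusted p of 0.0275 and an adjusted p of 0.179, and 0.21 without DSS_ICB mice 3 and 5. Cyp4a10, a liver and kidney target of the receptor PPARα, did not exceed 0.0281 FPKM.

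**Figure D5:**
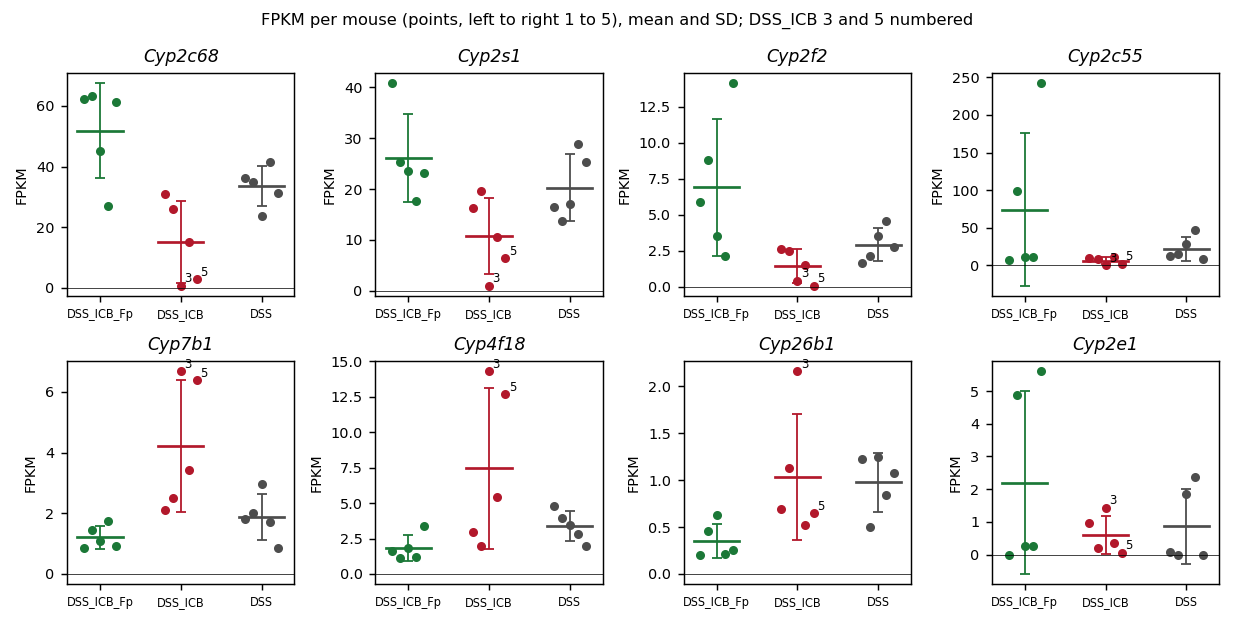
FPKM of 8 P450 genes in each mouse (points, mice 1 to 5 from left to right within a group), with the group mean and SD, for DSS_ICB_Fp, DSS_ICB and DSS mice from left to right; DSS_ICB mice 3 and 5 are numbered and each panel has its own scale. Mice 3 and 5 are the lowest points for Cyp2c68 and Cyp2s1 and the highest for Cyp7b1 and Cyp4f18.

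Among the sterol enzymes, Cyp7b1 was the only tested P450 gene whose groups did not overlap in any comparison. It encodes the oxysterol 7-alpha-hydroxylase, which breaks down 25- and 27-hydroxycholesterol, and lies on chromosome 3 from 18071950 to 18243338 on the minus strand. It had 0.848, 1.44, 1.09, 1.75 and 0.91 FPKM in DSS_ICB_Fp mice 1 to 5, against 2.10, 2.49, 6.68, 3.43 and 6.39 FPKM in DSS_ICB mice 1 to 5 and 1.83, 2.01, 2.95, 1.70 and 0.843 FPKM in DSS mice 1 to 5. All 5 DSS_ICB_Fp mice lay below all 5 DSS_ICB mice, while both groups overlapped the DSS mice. That is 1 of 29 members, 3.45%, beside 3.41% of all tested genes whose groups did not overlap in that comparison in either direction and 2.46% that were lower without overlap; for DSS_ICB against DSS it was 0 of 29 beside 1.54%, and for DSS_ICB_Fp against DSS 0 of 29 beside 0.389%. The change for DSS_ICB_Fp against DSS_ICB was -1.16 ± 0.26, with an adjusted p of 0.0712, the smallest of the members. It was -0.74 without DSS_ICB mice 3 and 5, with an adjusted p of 0.189. The adjusted p of this change was 0.0302 without DSS_ICB mouse 1, 0.0468 without DSS_ICB mouse 2 and 0.0353 without DSS_ICB_Fp mouse 4. For DSS_ICB against DSS the change was 0.80 ± 0.26, with an unadjusted p of 0.00767 and an adjusted p of 0.418. Without mice 3 and 5 it was 0.38, with an unadjusted p of 0.0958. DSS_ICB mice 3 and 5, the highest for Cyp7b1, also had the highest neutrophil sums given above, and the highest sums of 6 fibroblast and of 6 endothelial markers. The fibroblast sum was 224 to 426 FPKM in DSS_ICB_Fp mice, 388 to 724 FPKM in DSS_ICB mice and 285 to 416 FPKM in DSS mice. The endothelial sum was 27.5 to 44.5 FPKM in DSS_ICB_Fp mice, 45.6 to 110 FPKM in DSS_ICB mice and 24.1 to 53.8 FPKM in DSS mice. None of these markers was at 0 in all libraries, and the part of these cells in the Cyp7b1 values was not tested.

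The other oxysterol and bile acid genes had their lowest mean in DSS_ICB mice or were near 0. Cyp39a1, which hydroxylates 24-hydroxycholesterol, averaged 8.32 ± 2.39 FPKM in DSS_ICB_Fp mice, 4.07 ± 2.20 FPKM in DSS_ICB mice and 6.28 ± 1.03 FPKM in DSS mice. Its change for DSS_ICB_Fp against DSS_ICB was 0.98 ± 0.30, with an adjusted p of 0.11, which was 0.0456 without DSS_ICB mouse 1. Without DSS_ICB mice 3 and 5 the change was 0.49, with an adjusted p of 0.241. Cyp27a1, the mitochondrial sterol 27-hydroxylase that makes 27-hydroxycholesterol, averaged 12.6 ± 3.20 FPKM in DSS_ICB_Fp mice, 8.67 ± 2.59 FPKM in DSS_ICB mice and 11.95 ± 4.21 FPKM in DSS mice. Cyp7a1, the rate-limiting enzyme of bile acid synthesis in liver, was at 0 in all 15 libraries. Cyp8b1, the sterol 12-alpha-hydroxylase of liver, had 0 to 0.086 FPKM in DSS_ICB_Fp mice, 0.105 to 0.905 FPKM in DSS_ICB mice and 0 to 0.162 FPKM in DSS mice, and was below the filter. Cyp46a1, the cholesterol 24-hydroxylase of neurons, did not exceed 0.275 FPKM.

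For vitamin A, Cyp26b1, which degrades retinoic acid, was the only tested member of its family. It had 0.20, 0.455, 0.625, 0.217 and 0.251 FPKM in DSS_ICB_Fp mice 1 to 5, against 0.691, 1.13, 2.16, 0.524 and 0.647 FPKM in DSS_ICB mice 1 to 5 and 1.22, 0.499, 1.24, 0.836 and 1.08 FPKM in DSS mice 1 to 5. DSS_ICB_Fp mouse 3 was within the range of both other groups, and the other 4 DSS_ICB_Fp mice were below them. The change was -0.54 ± 0.19 both against DSS_ICB (adjusted p of 0.137) and against DSS (unadjusted p of 0.0123, adjusted p of 0.9997), comparisons that share the DSS_ICB_Fp mice. With all mice in the fit, Cyp26b1 was the 1 member lower than in DSS mice at an unadjusted p under 0.05. No DSS_ICB_Fp mouse reached 1 FPKM, so Cyp26b1 passed the filter through DSS and DSS_ICB mice only. That selection favours a lower level in DSS_ICB_Fp mice. At these low values the pseudocount of 1 FPKM makes the change small: it was -1.29 for DSS_ICB_Fp against DSS with a pseudocount of 0.1. Cyp26a1 and Cyp26c1 did not exceed 0.111 FPKM.

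For vitamin D, Cyp2r1, a 25-hydroxylase, was between 0.249 and 1.10 FPKM and reached 1 FPKM in 1 library. Cyp27b1, the activating 1-alpha-hydroxylase, did not exceed 0.117 FPKM, and the degrading enzyme Cyp24a1 was at 0 in all libraries. Of the steroid hormone enzymes, Cyp17a1, Cyp19a1, Cyp11b1 and Cyp11b2 were at 0 in all libraries, and Cyp11a1, which starts steroid synthesis from cholesterol, did not exceed 0.0783 FPKM. Cyp20a1, whose substrate is not settled, varied little, at 10.3 ± 1.03 FPKM in DSS_ICB_Fp mice, 11.9 ± 1.88 FPKM in DSS_ICB mice and 9.88 ± 0.693 FPKM in DSS mice. It was not low in DSS_ICB mouse 3, at 10.2 FPKM.

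Genes that serve the P450 enzymes had no calls in any comparison. Of 21 electron donors and haem genes 20 were tested, and for DSS_ICB_Fp against DSS_ICB 0 were higher and 3 lower at an unadjusted p under 0.05, beside 9.34% higher and 12.4% lower among all tested genes, with a median change of 0.07. The same shares of all genes stand beside the counts of the other lists here. Por, the P450 oxidoreductase, averaged 13.9 ± 2.18 FPKM in DSS_ICB_Fp mice, 13.4 ± 3.39 FPKM in DSS_ICB mice and 12.2 ± 2.90 FPKM in DSS mice. Hmox1, which breaks down haem, averaged 4.14 ± 1.62 FPKM in DSS_ICB_Fp mice, 14.7 ± 8.91 FPKM in DSS_ICB mice and 6.41 ± 1.05 FPKM in DSS mice, with an adjusted p of 0.0706 for DSS_ICB_Fp against DSS_ICB. DSS_ICB mice 3 and 5 had 20.9 and 27.3 FPKM of Hmox1, and the other 3 DSS_ICB mice 7.79 to 8.91 FPKM. Of 7 aryl hydrocarbon receptor genes 5 were tested, with 0 higher and 2 lower in that comparison at an unadjusted p under 0.05. Of 29 nuclear receptors and partner factors 22 were tested, with 7 higher and 1 lower at that level and a median change of 0.28. Vdr, the vitamin D receptor, averaged 58.5 ± 20.7 FPKM in DSS_ICB_Fp mice, 21.4 ± 16.8 FPKM in DSS_ICB mice and 41.2 ± 8.21 FPKM in DSS mice, and Nr1i2, the xenobiotic receptor PXR, averaged 27.3 ± 5.72 FPKM in DSS_ICB_Fp mice, 16.9 ± 10.3 FPKM in DSS_ICB mice and 25.3 ± 2.85 FPKM in DSS mice. DSS_ICB mice 3 and 5 were the lowest for both receptors, with 1.15 and 7.83 FPKM of Vdr beside 23.2 to 39.5 FPKM in the other 3 DSS_ICB mice, and 1.52 and 12.5 FPKM of Nr1i2 beside 19.5 to 27.4 FPKM. Of 9 epoxide hydrolases and flavin monooxygenases, which act beside P450 enzymes, 7 were tested, with 5 higher and 0 lower at that level. Of 3 P450 genes outside the symbol rule, Cyp51 and Ptgis were tested, and neither had an unadjusted p under 0.05 in any comparison.

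The promoters of Cyp2c68 and Cyp2s1, lower in DSS_ICB mouse 3, are shown beside that of Cyp4f18, higher there, and that of Cyp1a1, the textbook aryl hydrocarbon receptor target. Each is the 250 bases before the start of the gene in RefSeq (GRCm38.p6), written 5′ to 3′ on the gene's strand; capitals mark GCGTG, the core of the aryl hydrocarbon receptor site, or its reverse complement CACGC.
Cyp2c68: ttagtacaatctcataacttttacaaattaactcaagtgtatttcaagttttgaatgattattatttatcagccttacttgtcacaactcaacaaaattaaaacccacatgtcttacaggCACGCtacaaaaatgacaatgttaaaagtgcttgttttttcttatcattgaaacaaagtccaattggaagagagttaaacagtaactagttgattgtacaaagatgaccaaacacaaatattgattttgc
Cyp2s1: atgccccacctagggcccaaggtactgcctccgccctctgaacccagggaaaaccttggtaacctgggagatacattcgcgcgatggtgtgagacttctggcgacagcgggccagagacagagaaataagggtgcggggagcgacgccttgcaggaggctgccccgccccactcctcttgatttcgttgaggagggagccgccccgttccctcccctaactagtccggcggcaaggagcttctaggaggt
Cyp4f18: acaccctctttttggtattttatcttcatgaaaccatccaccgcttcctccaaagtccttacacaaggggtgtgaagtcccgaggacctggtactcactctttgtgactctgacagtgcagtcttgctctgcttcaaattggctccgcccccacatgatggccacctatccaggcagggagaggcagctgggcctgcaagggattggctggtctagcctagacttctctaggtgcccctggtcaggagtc
Cyp1a1: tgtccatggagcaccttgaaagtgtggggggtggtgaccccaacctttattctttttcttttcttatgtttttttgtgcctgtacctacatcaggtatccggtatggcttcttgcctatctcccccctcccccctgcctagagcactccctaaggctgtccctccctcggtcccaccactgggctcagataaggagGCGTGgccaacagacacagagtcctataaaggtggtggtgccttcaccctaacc
These lie at chr19:39741102-39741351 (minus strand) for Cyp2c68, chr7:25816526-25816775 (minus strand) for Cyp2s1, chr8:72009627-72009876 (minus strand) for Cyp4f18 and chr9:57697363-57697612 (plus strand) for Cyp1a1. The window of Cyp2c68 held CACGC and that of Cyp1a1 held GCGTG, 1 match each, while these letters were not in the windows of Cyp2s1 and Cyp4f18. Of the 94 members 73 were in the promoter table. On either strand, GCGTG was in 7 of the 23 tested members with a window, 30.4%, in 15 of 73 members, 20.5%, and in 30.9% of all 27025 genes of the table. AGGTCA, the nuclear receptor half-site, can share at most 2 end bases with GCGTG or CACGC and was searched for on both strands after the values were seen. It was in 1 of the 23 tested members, Cyp2f2, in 18 of 73 members, 24.7%, and in 15.8% of all genes of the table.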

How the data were processed

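Per the submitters' processing notes, the authors used FastQC, STAR 2.5, Cuffnorm and DESeq with the mm10 build; the role of each is not given in the sources used here. The deposited values of each mouse are 1 number per Ensembl gene, taken as FPKM because Cuffnorm is named and the values are not whole; any further scaling between libraries is not stated. Depth was estimated from the steps between low FPKM values of genes with 1 transcript of at least 1500 bases. With a tolerance of 0.03 log2, 35.5% to 44.0% of these values per library were near a whole read, and 12.4% to 17.8% were near a shifted step, so whole reads were not recovered and no count test was used. Intervals and errors describe the spread between mice.

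Of 55335 genes, 55154 matched GENCODE M21. Genes with at least 1 FPKM in at least 5 libraries (14385) were fitted with limma 3.58.1 in R 4.3.3 on log2(FPKM + 1), which understates the change of low genes, with its trend and robust options over all 15 libraries. The 3 contrasts were two-sided and Benjamini-Hochberg adjusted over all tested genes, with a threshold of 0.05. The procedure was tested on simulated data. Shared sequence was counted as 50-base stretches of M21 transcripts found in transcripts of other P450 genes. Named members were those with the smallest p in each direction and comparison, the highest of each family, and a list of enzymes of known role; Cyp1a2, Cyp11b2, Cyp26c1, Cyp2c40 and Cyp2d11, and the genes named from the pathway lists, were chosen after their values were seen. The members and lists were chosen with earlier results of these data known. Alternatives were other scalings, pseudocounts, filters and fits, and leaving out libraries.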

Additional observations from a re-analysis of the deposited data

Results flagged for a closer look

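In 4 of the 78 groups of 5 mice examined for the named members, 1 mouse lay far from the other 4 by Dixon's test on log2(FPKM + 1); chance alone flags about 1 in 20 groups. Cyp3a13 was low in DSS_ICB_Fp mouse 4, at 11.8 FPKM. Cyp4f16 was low in DSS_ICB mouse 3, at 2.31 FPKM, and so was Cyp4f40, at 0.886 FPKM. Cyp4f14 was high in DSS mouse 5, at 16.4 FPKM.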

How the results depend on the processing

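No paired analysis was possible because the mice were numbered in accession order within each group and no label ties a mouse of 1 group to a mouse of another. Of the 78 changes recomputed for named members, 62 kept their sign under every alternative and 16 did not. None of the 78 was called in the main fit. Some alternatives cannot alter the estimate of a gene. These are the other filters, the fit of the 2 compared groups and leaving out a mouse of the group not compared. Over all genes, the 3 calls of DSS_ICB against DSS became 0 with a pseudocount of 0.1, 1 with a pseudocount of 10, 1 with no filter, 1 with a filter at 5 FPKM, 1 in a fit of the 2 groups, 1 without DSS_ICB mice 3 and 5, and 0 to 7 when 1 mouse was left out. The 19 calls of DSS_ICB_Fp against DSS_ICB became 11 with upper-quartile scaling, 42 with a pseudocount of 0.1, 5 with a pseudocount of 10, 7 with no filter, 11 with a filter at 5 FPKM, 0 in a fit of the 2 groups, and 5 to 598 when 1 mouse was left out, with 598 without DSS_ICB mouse 1. Called P450 members in that comparison numbered 0 to 6 when 1 mouse was left out. They were 6 of 29 without DSS_ICB mouse 1, beside 598 of all 14385 tested genes. They were 2 of 29 without DSS_ICB mouse 2 and 2 of 29 without DSS_ICB_Fp mouse 4. For these last 2 settings the calls over all genes are given only as the range of 5 to 598. Whether the P450 calls exceeded the rise over all genes was not tested. More genes entered with no filter, and fewer genes or samples with the stricter filter, the fits of 2 groups and the omissions; the cause of the other shifts was not tested.

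Signs turned as follows. For DSS_ICB against DSS, Cyp26b1 was 0.0053 with a pseudocount of 10 and Cyp2e1 was 0.39 with a pseudocount of 0.1. Without DSS_ICB mice 3 and 5, Cyp2c65 was 0.035, Cyp4b1 -0.0021, Cyp4f13 0.029, Cyp4f17 -0.068, Cyp4f18 -0.025 and Cyp4f40 0.058 for DSS_ICB against DSS, and Cyp2c65 was -0.10 and Cyp4f17 0.21 for DSS_ICB_Fp against DSS_ICB. With 1 mouse left out, DSS_ICB against DSS spanned -0.17 to 0.089 for Cyp26b1, -0.083 to 0.17 for Cyp2d22, -0.24 to 0.20 for Cyp2e1 and -0.064 to 0.15 for Cyp4b1. DSS_ICB_Fp against DSS_ICB spanned -0.26 to 0.11 for Cyp4f17. DSS_ICB_Fp against DSS spanned -0.023 to 0.25 for Cyp27a1, -0.058 to 1.16 for Cyp2c55, -0.24 to 0.036 for Cyp2c65, -0.047 to 0.21 for Cyp4f40 and -0.025 to 0.24 for Cyp4v3.

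The other scalings moved the median of all genes by -0.04 to 0.07 on the log2 scale. The 65 members below the filter were not tested at the 1 FPKM setting. Depth was estimated rather than deposited, so no counting interval is given.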
